A study of Mus musculus with 25 samples.

Results

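The collagen chains measured here were the 44 genes of the count table, out of 52636, whose symbol has the form of a collagen alpha chain (*Col1a1*, *Col4a2* and so on). They lay on 15 chromosomes, and all are described here by genotype, exercise and sex. Total RNA was sequenced from the *soleus* muscle, a slow postural muscle of the hindlimb, of 25 C57BL/6 mice aged 12 weeks. WT mice carried floxed *Dnmt3a* alleles on both chromosomes and no Cre, and muscle-specific knockout (mD3AKO) mice carried the same floxed alleles (exon 19 of *Dnmt3a*) with Cre recombinase driven by the muscle creatine kinase promoter. *Dnmt3a* encodes a DNA methyltransferase. That promoter is active in muscle fibers, and Cre is therefore directed to the fibers and not to the other cells of the muscle. Resting mice spent 30 minutes in a sham treadmill arena, and exercised mice ran for 30 minutes at 16 m/min on a 5% incline and were killed 60 minutes later. The groups held 5 WT mice at rest (2 females, 3 males), 7 WT mice after exercise (4 females, 3 males), 7 mD3AKO mice at rest (3 females, 4 males) and 6 mD3AKO mice after exercise (3 females, 3 males).

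Collagens are trimeric extracellular proteins with a triple helix built from repeats around glycine. Fibrillar chains (types I, III, V, XI) form the cable-like fibrils of the perimysium and tendon. Type IV chains form the sheet of the basement membrane around each muscle fiber and capillary, type VI chains form beaded microfilaments beside it, and the FACIT chains sit on fibril surfaces or at interfaces such as the myotendinous junction. In skeletal muscle most fibrillar collagen is made by fibroblasts, so its transcripts come mainly from cells other than the muscle fiber.

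The libraries held 22671457 to 37431801 counts assigned to genes (median 32189360). Knockout was seen in every library, with *Dnmt3a* at 93.4 to 130.5 CPM (the count of a gene scaled by the TMM-normalized size of its library) in WT mice and 34.5 to 53.9 CPM in mD3AKO mice. Collagen chains took 0.0977% to 0.888% of the counts of a library (median 0.319%). Mouse 15 (mD3AKO, rest, male) gave both the lowest library total and the lowest collagen share. It also stood apart in the share of its counts on the mitochondrial ribosomal genes *mt-Rnr1* and *mt-Rnr2*, which was 31.6% against 7.68% to 13.0% elsewhere. Mouse 7 (mD3AKO, rest, male) gave the highest collagen share. Of the 41 chains tested, 14 were highest in mouse 7 and 23 were lowest in mouse 15, so the counts and the chains that depend most on them are also given without them. In bulk tissue, fewer cells of a type and less RNA per cell cannot be told apart.

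Of the 44 chains, 41 passed the filter on low counts and were tested among 16340 genes. The remaining 3 chains, *Col9a3*, *Col9a1* and *Col6a4*, had 126, 87 and 36 reads in all 25 libraries together, with 14, 12 and 6 in the highest library. Levels of different genes were compared as RPKM, which is CPM per kilobase of exon. The fibrillar chains *Col3a1* (mean 67.7 RPKM, range 22.7 to 280.2 over mice), *Col1a1* (65.6, range 26.6 to 125.8) and *Col1a2* (47.6, range 20.3 to 92.6) led the order. The basement membrane chain *Col4a1* (46.5, range 25.3 to 66.8) came next, then *Col6a1* at 32.6, *Col4a2* at 30.7, *Col6a2* at 14.2, *Col6a3* at 13.4, *Col15a1* at 12.1 and *Col5a1* at 11.5 RPKM. The ranges of all 10 overlapped those of their neighbours in this order. The lead of *Col3a1* rested on mouse 7, in which it reached 280.2 RPKM. Without that mouse the mean of *Col1a1* was above that of *Col3a1*. At the other end of the tested chains stood *Col25a1* (0.0769 RPKM), *Col4a6* (0.0517) and *Col19a1* (0.0401), with medians of 31, 14 and 8 reads per library. *Col22a1*, the collagen of the myotendinous junction, reached 7.63 RPKM, while *Col13a1*, a transmembrane collagen of the neuromuscular junction, reached 0.413 and *Col25a1*, a transmembrane collagen needed for motor innervation, was near the end of the order.

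**Figure D1:**
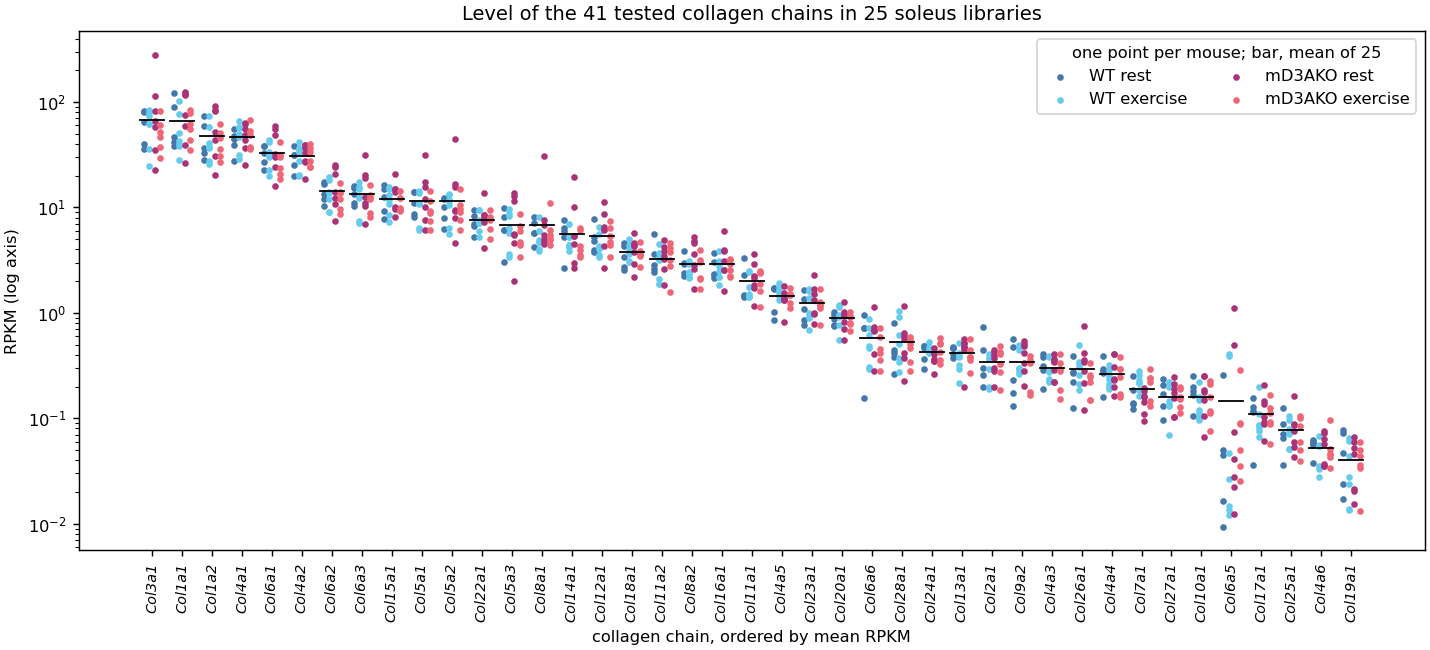
RPKM (log axis) of the 41 tested collagen chains, ordered by mean RPKM, with 1 point per mouse coloured by group and a bar at the mean of the 25 mice. The order runs from *Col3a1* (67.7 RPKM) to *Col19a1* (0.0401 RPKM), and the points of the 4 groups lie over each other at each chain.

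By class, fibrillar chains (11 genes) made up a mean of 51.4% of the summed collagen RPKM of a library, type IV chains (6 genes) 20.5%, type VI chains (the beaded filaments, 6 genes) 15.1%, FACIT chains (9 genes) 5.80% and the multiplexins *Col15a1* and *Col18a1*, which carry heparan or chondroitin sulphate in basement membranes, 4.10%. The fibrillar share was 52.0% ± 5.41 (SD, n = 5) in WT mice at rest, 49.6% ± 4.32 (n = 7) in WT mice after exercise, 53.6% ± 7.18 (n = 7) in mD3AKO mice at rest and 50.2% ± 3.75 (n = 6) in mD3AKO mice after exercise. The type IV share in the same order was 19.4% ± 2.91, 21.8% ± 3.01, 18.5% ± 4.70 and 22.1% ± 3.42. The differences between these group means were smaller than the SD of at least 1 of the groups in each case, and the shares were not tested.

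Collagen chains differed widely between mice of the same group. The SD of log2 CPM within groups had a median of 0.49 over the 41 chains, against 0.22 over all tested genes. It ranged from 0.26 (*Col24a1*) to 1.83 (*Col6a5*), and 32 of the 41 chains exceeded the 75th percentile of all tested genes (0.40). These values are a description, since the spread of a gene also depends on its count. For *Col3a1* the highest and lowest mice differed 12.4-fold, and for *Col5a2* 9.64-fold.

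The main effect of exercise was tested as the mean of the exercise effects of both genotypes. Of the 41 chains 1 was called at a false discovery rate of 5%, which is 2.44%, whereas 10.4% of all tested genes were called. Most chains had lower means after exercise without passing the test. The log2 fold change was below 0 for 34 of the 41 chains (82.9%, against 50.3% of all tested genes), and its median was -0.18, against -0.00 over all genes. Many chains varied together across the same mice, so the 41 signs are not separate observations, and their share was not tested. In WT mice 26 of 41 chains were below 0 (median -0.06) and in mD3AKO mice 37 of 41 (median -0.21), and the difference of these medians was not tested. The summed CPM of 7 fibroblast markers averaged 617 ± 52.0 (SD, n = 5) at rest and 614 ± 70.4 (n = 7) after exercise in WT mice, and 692 ± 173 (n = 7) and 551 ± 147 (n = 6) in mD3AKO mice. Their part in the collagen values was not tested. The median of the interaction (the exercise effect in mD3AKO minus that in WT mice), -0.19 with all mice, was 0.08 in males only and -0.55 in females only. Without mice 7 and 15, 36 of 41 chains were below 0 for exercise, 26 in WT mice and 37 in mD3AKO mice (medians -0.21, -0.06 and -0.28). Over the alternatives with other settings or a single sex the median for exercise ran from -0.34 in males only to -0.077 in females only.

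The chain called was *Col7a1*, which encodes the anchoring fibril collagen known from the skin basement membrane. It was sparse, with 14 to 106 reads per library. In WT mice at rest it stood at 1.40, 1.92, 1.27, 1.45 and 2.57 CPM, and in WT mice after exercise at 1.68 to 2.91 CPM (median 2.22, n = 7). In mD3AKO mice at rest it stood at 0.979 to 1.99 CPM (median 1.64, n = 7) and after exercise at 1.36 to 3.04 CPM (median 2.37, n = 6). The rested and exercised mice overlapped, with 11 of 13 exercised mice above the median of the rested mice and 3 above all of them. The log2 fold change was 0.45 ± 0.15 (SE) with an adjusted p of 0.0495 in edgeR and 0.0257 in DESeq2. The call rested on a value at the threshold. It was lost on leaving out any of 18 of the 25 mice (adjusted p 0.0139 to 0.105 over all 25 fits), including mouse 15 (0.0609) and mouse 7 (0.0759). The log2 fold change of *Col7a1* stayed between 0.39 and 0.54 in these fits. In males alone it was 0.66 (adjusted p = 0.0748) and in females alone 0.19 (adjusted p = 0.864), and the difference between the sexes was 0.47 ± 0.29 (adjusted p = 1).

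The 250 bases before the RefSeq start of *Col7a1* (GRCm38.p6, chr9:108953336-108953585, plus strand) are shown because this was the chain called for exercise. Capitals mark a CCAAT box on the minus strand at the far end and a GC box (GGGCGG) that begins 61 bases before the start.

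Col7a1: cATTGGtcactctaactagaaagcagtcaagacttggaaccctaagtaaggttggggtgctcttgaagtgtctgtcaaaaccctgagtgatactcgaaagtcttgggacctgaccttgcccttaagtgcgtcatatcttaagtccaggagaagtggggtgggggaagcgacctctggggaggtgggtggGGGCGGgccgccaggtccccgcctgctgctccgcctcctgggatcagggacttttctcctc

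The fibrillar chains were not called. *Col1a1*, which encodes the α1 chain of type I collagen, stood at 276.0, 804.2, 592.1, 250.5 and 304.6 CPM in WT mice at rest and at 185.0 to 677.3 CPM (median 281.0) after exercise. In mD3AKO mice it stood at 174.4 to 825.4 CPM (median 496.1) at rest and 229.4 to 547.3 CPM (median 385.9) after exercise. The groups overlapped over most of their range, with a log2 fold change of -0.37 ± 0.26 (95% interval -0.90 to 0.16, adjusted p = 0.458), and -0.38 without mice 7 and 15. With other settings or a single sex the value ran from -0.77 to 0.050, the latter in females only. *Col3a1*, the chain of type III collagen, which forms thin fibrils with type I, had a log2 fold change of -0.44 ± 0.30 (95% interval -1.05 to 0.17, adjusted p = 0.446). Without mouse 7 that value was -0.15, and without mice 7 and 15 it was -0.23. *Col14a1*, a FACIT chain on fibril surfaces, gave -0.41 ± 0.24 with all mice, -0.17 without mouse 7 and -0.23 without mice 7 and 15. *Col8a2*, a short-chain network collagen, was the other chain with an unadjusted p under 0.05, where 21.3% of all genes had one (log2 fold change -0.32 ± 0.15, adjusted p = 0.221, and -0.33 without mice 7 and 15).

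The 6 type IV chains had log2 fold changes from -0.17 to 0.12, with *Col4a3* at -0.17, *Col4a4* at -0.16 and *Col4a6* at -0.13 near the median of all chains and *Col4a5* at 0.12. *Col4a1* stood at 289.3, 334.2, 415.5, 205.5 and 351.4 CPM in WT mice at rest and at 214.2 to 492.6 CPM (median 367.3) after exercise. In mD3AKO mice it was 188.9 to 471.3 CPM (median 360.1) at rest and 270.3 to 498.8 CPM (median 320.5) after exercise. Its log2 fold change was 0.07 ± 0.16 with a 95% interval of -0.25 to 0.39, and that of *Col4a2* was 0.03 ± 0.14 (-0.26 to 0.32). *Col6a1*, a type VI chain, gave -0.22 ± 0.18 (-0.60 to 0.15) and *Col22a1* -0.08 ± 0.14 (-0.37 to 0.21). The intervals of these 4 chains leave out changes of 2-fold in either direction, whereas that of *Col3a1* reached past a 2-fold decrease. Of the other chains of interest in muscle, *Col15a1* gave -0.15 ± 0.15, *Col18a1* 0.00 ± 0.13, *Col13a1* -0.24 ± 0.14 and *Col25a1* -0.11 ± 0.21, with adjusted p of 0.35 to 0.998.

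By class, 10 of 11 fibrillar chains, 5 of 5 tested type VI chains, 6 of 7 tested FACIT chains, 4 of 4 transmembrane chains and 3 of 3 short-chain network chains had a log2 fold change below 0, against 3 of 6 type IV chains. The class medians were -0.26, -0.26, -0.18, -0.14, -0.32 and -0.05. Of all tested genes 50.3% were below 0, and the differences between classes were not tested. Chains of a class often varied together across mice, so these counts are not of separate observations.

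**Figure D2:**
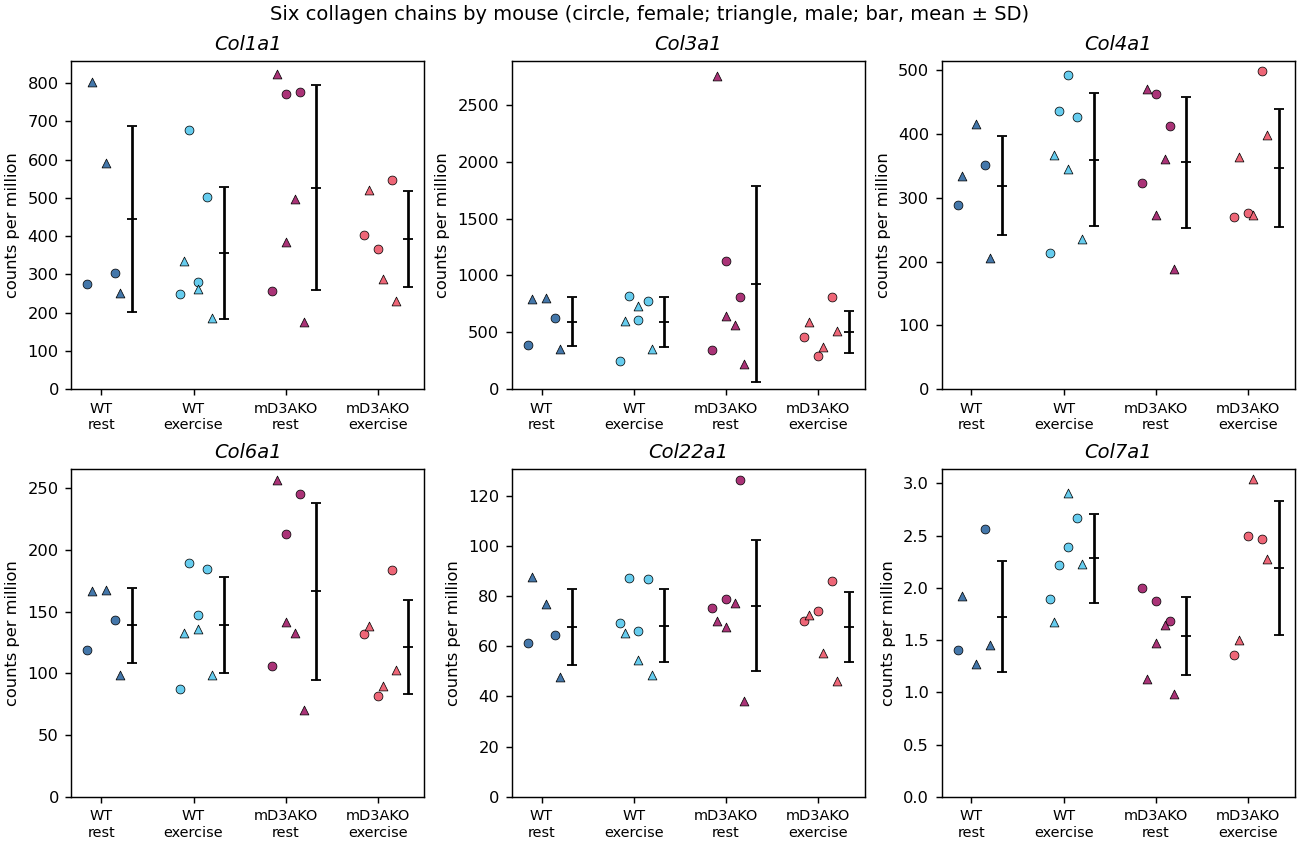
CPM of *Col1a1*, *Col3a1*, *Col4a1*, *Col6a1*, *Col22a1* and *Col7a1* in each of the 25 mice (circles, females; triangles, males) by genotype and exercise, with the mean ± SD of each group. *Col7a1* averages 1.72 and 1.54 CPM in the rested groups and 2.28 and 2.19 CPM in the exercised groups, and *Col3a1* of mouse 7 (2751 CPM) stands above all other mice.

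Tested within each genotype, 0 of 41 chains were called for exercise in WT mice (3.59% of all genes called) and 0 of 41 in mD3AKO mice (6.02% of all genes called) by edgeR, and DESeq2 also called 0 in each. At an unadjusted p under 0.05 edgeR gave 0 chains in WT mice, against 12.3% of all genes, and 4 of 41 in mD3AKO mice, against 17.6% of all genes: *Col7a1*, *Col26a1*, *Col8a2* and *Col3a1*. Both comparisons have mice of their own, and their difference is the interaction given below.

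Loss of *Dnmt3a* in muscle fibers was compared as the mean of the genotype effects at rest and after exercise. By edgeR 0 of 41 chains were called (0.269% of all genes called), 0 had an unadjusted p under 0.05, and DESeq2 called 0. The median log2 fold change was 0.07, against 0.01 over all genes, and 8 of 41 chains (19.5%) were below 0, against 46.6% of all tested genes. As for exercise, these signs are not separate observations. At rest 7 of 41 chains were below 0 (median 0.17), and after exercise 23 of 41 (median -0.03). Without mice 7 and 15 these counts were 7 of 41 for genotype, 6 of 41 at rest and 23 of 41 after exercise. *Col12a1*, a FACIT chain of tendon and fascia, had the smallest p. It averaged 77.9 ± 24.2 CPM (SD, n = 5) and 68.5 ± 17.4 CPM (n = 7) in WT mice at rest and after exercise, against 99.6 ± 42.9 CPM (n = 7) and 80.1 ± 21.8 CPM (n = 6) in mD3AKO mice. Its log2 fold change was 0.29 ± 0.18 (95% interval -0.07 to 0.66, adjusted p = 0.912), and 0.27 without mice 7 and 15, which were its highest and lowest mice. On leaving out 1 mouse at a time the value ran from 0.20 (without mouse 7) to 0.39 (without mouse 11). With other settings or a single sex it ran from 0.14 to 0.50. *Col8a1*, a short-chain network collagen of vessel walls, gave 0.42 ± 0.26 (adjusted p = 0.919), and 0.07 without mouse 7, in which it reached 155.5 CPM, or 0.09 without mice 7 and 15. For *Col4a1* the interval of the genotype effect was -0.27 to 0.37 and for *Col22a1* -0.21 to 0.37. At rest 0 of 41 chains were called for genotype (0.0918% of all genes called) and after exercise 0 of 41 (0.11% of all genes called), with 0 at an unadjusted p under 0.05 and 0 by DESeq2 in each.

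For the interaction, the difference of the exercise effect between genotypes, 0 of 41 chains were called by edgeR and by DESeq2, where 0% of all genes were called. At an unadjusted p under 0.05 there was 1 chain, against 2.47% of all genes. It was *Col26a1*, with -0.92 ± 0.45 (adjusted p = 1). *Col26a1* had 14 reads in its lowest library and a median of 77. For *Col3a1* the log2 fold change with exercise was -0.01 ± 0.43 in WT mice and -0.87 ± 0.42 in mD3AKO mice, and the interaction was -0.86 ± 0.60 (adjusted p = 1). *Col3a1* stood at 392.3, 793.4, 803.2, 349.3 and 629.0 CPM in WT mice at rest and at 244.7 to 816.0 CPM (median 606.4) after exercise. In mD3AKO mice it ran from 222.3 to 2751 CPM at rest (median 645.5) and from 288.4 to 812.2 CPM after exercise (median 483.0). The highest value was that of mouse 7, and the next mouse of the group stood at 1130 CPM. Without mouse 7 the interaction was -0.29, and without mice 7 and 15 it was -0.45. In mouse 7 the summed fibroblast markers (924 CPM) and the summed macrophage and other immune markers (121 CPM) were also the highest of the 25 mice, and the part of these cells in the result was not tested.

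**Figure D3:**
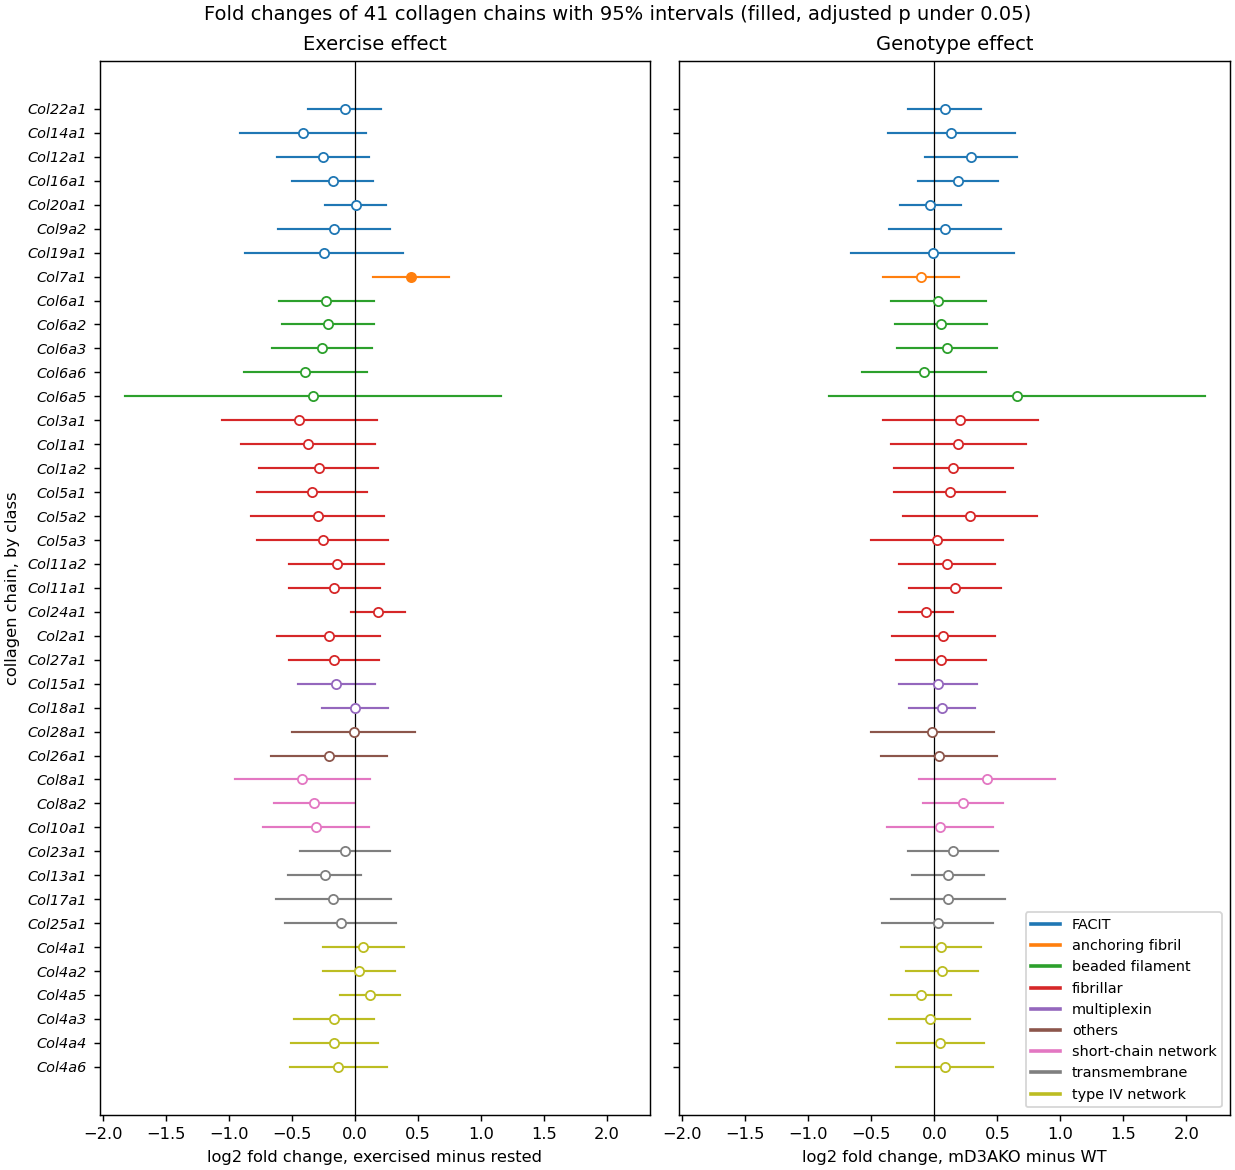
Log2 fold changes of the 41 tested chains for exercise (exercised minus rested) and genotype (mD3AKO minus WT), on the same axis, with 95% intervals and coloured by class; filled points passed an adjusted p of 0.05. Only *Col7a1* is filled, for exercise, at 0.45, and 34 of 41 exercise values lie below 0.

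Sexes were compared as the mean difference of males and females over the 4 combinations of genotype and exercise. Of 41 chains 2 were called (4.88%, where 8.65% of all genes were called), and both were lower in males. They were *Col23a1*, a transmembrane collagen whose ectodomain is shed, and *Col6a5*, a type VI chain that can take the place of the α3(VI) chain. DESeq2 also called 2 chains, and 7 of 41 had an unadjusted p under 0.05 in edgeR, against 23.9% of all genes. Beside the called chains these were *Col28a1*, *Col22a1*, *Col19a1*, *Col26a1* and *Col8a1*.

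*Col23a1* ran from 5.71 to 13.1 CPM in the 12 females (median 8.59) and from 3.98 to 8.58 CPM in the 13 males (median 5.41). The ranges overlapped, yet all 12 females lay above the median of the males and 6 of them above every male. The log2 fold change was -0.64 ± 0.12 (95% interval -0.90 to -0.38), with an adjusted p of 0.00256. It remained called on leaving out any of the 25 mice (-0.69 to -0.58, adjusted p 0.000647 to 0.0105) and was -0.72 at rest (adjusted p = 0.0377) and -0.56 after exercise (adjusted p = 0.109) in the same fit. In separate fits of rested mice only and of exercised mice only *Col23a1* was not called. The effects of exercise and genotype on *Col23a1* were not called.

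The 250 bases before the RefSeq start of *Col23a1* (GRCm38.p6, chr11:51289670-51289919, plus strand) are shown because it was the chain with the lowest p for sex. They have a GC content of 66%, and capitals mark a GC box on the minus strand 11 bases before the start.

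Col23a1: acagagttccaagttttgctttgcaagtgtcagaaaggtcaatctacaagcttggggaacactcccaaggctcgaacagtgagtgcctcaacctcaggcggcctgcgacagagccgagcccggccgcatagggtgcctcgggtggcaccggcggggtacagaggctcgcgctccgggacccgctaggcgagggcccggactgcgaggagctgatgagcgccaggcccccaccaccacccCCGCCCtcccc

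*Col6a5* was the most variable of the tested chains, with 3 to 399 reads per library and a 119-fold range of CPM over mice. It ran from 0.113 to 10.5 CPM in females (median 0.649) and from 0.0885 to 2.71 CPM in males (median 0.263), and 4 females lay above every male. The log2 fold change was -2.02 ± 0.61 (adjusted p = 0.0425). The call was lost on leaving out any of 16 of the 25 mice, and without mouse 20 (WT, rest, female) the value was -1.58 (adjusted p = 0.221). With other settings or subsets of mice the log2 fold change ran from -3.10 to -0.93.

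*Col28a1*, a collagen of the peripheral nerve, was the next chain by p. It ran from 1.66 to 5.70 CPM in females (median 2.84) and from 1.12 to 3.15 CPM in males (median 1.86), with a log2 fold change of -0.60 ± 0.21 (adjusted p = 0.0867). *Col22a1* gave -0.31 ± 0.12 (adjusted p = 0.114) and *Col8a1* 0.56 ± 0.25 (adjusted p = 0.175), higher in males. For *Col8a1* the highest male was mouse 7 at 155.5 CPM, and the next mouse stood at 56.2 CPM. Its sex value without mouse 7 is not given here.

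Markers of Schwann cells, the glia of peripheral nerve, differed between mice along with these chains. Their summed CPM (*Sox10*, *Mbp*, *S100b* and *Prx*) lay between 98.6 and 259 in 6 mice (4 females, 2 males) and between 23.1 and 43.6 in the other 19 (8 females, 11 males). By edgeR 0 of the 4 markers were called for sex and by DESeq2 1, and all 4 had an unadjusted p under 0.05 with a median log2 fold change of -0.79. *Col6a5* ran from 0.853 to 10.5 CPM in the 6 mice and from 0.0885 to 4.63 CPM in the 19, and 5 of the 6 mice highest in *Col6a5* were among the 6 highest in these markers. *Col28a1* ran from 2.29 to 5.70 CPM in the 6 mice and from 1.12 to 3.15 CPM in the 19. *Col23a1* ran from 6.38 to 13.1 CPM in the 6 mice (median 9.32) and from 3.98 to 9.73 CPM in the 19 (median 5.75), and its median was higher in the 6 within females (9.60 against 7.67 CPM) and within males (6.84 against 5.13 CPM). Without the 6 mice, the log2 fold change of *Col23a1* for sex was -0.60 (adjusted p = 0.0311), that of *Col28a1* was -0.345 (adjusted p = 0.458) and that of *Col6a5* was -1.06 (adjusted p = 0.426). In that fit 2 chains were called, *Col23a1* and *Col6a6*, a type VI chain that was not called with all mice (0.34 ± 0.24, adjusted p = 0.415). The share of all genes called without the 6 mice is not given here, so this count was not compared with it. This fit was chosen after the values had been seen, and the part of Schwann cells in the values of *Col23a1*, *Col6a5* and *Col28a1* was not tested further. Of 7 tendon markers 1 was called for sex, *Mkx*, lower in males (-0.40 ± 0.11, adjusted p = 0.0303), where 8.65% of all genes were called, and 6 of 7 had an unadjusted p under 0.05, against 23.9% of all genes. Among the 19 mice the Pearson r of *Col6a5* with the marker sum was 0.63 (adjusted permutation p = 0.0151; r = 0.52 without the 2 mice farthest from the median), and Spearman rho was 0.47 (adjusted permutation p = 0.117). Among the 6 mice r was 0.88 (exact adjusted permutation p = 0.0625; r = 0.92 without the 2 farthest) and rho was 0.89 (exact adjusted permutation p = 0.117). The other 4 of these 6 relations, those of *Col23a1* and *Col28a1*, had adjusted permutation p-values of 0.123 to 0.673 for r. These relations were computed after the values had been seen.

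**Figure D4:**
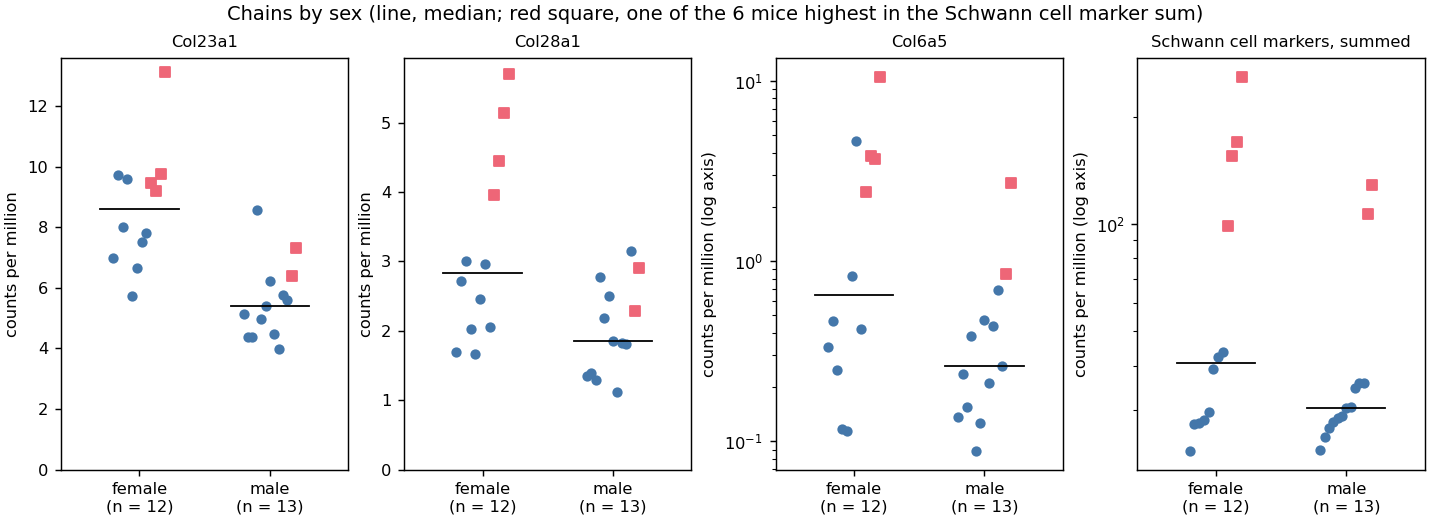
CPM of *Col23a1*, *Col28a1* and *Col6a5* and of the summed Schwann cell markers in 12 females and 13 males, with a line at the median; *Col6a5* and the marker sum are on log axes. Red squares are the 6 mice with a marker sum of 98.6 CPM or more, and the medians of *Col23a1* are 8.59 CPM in females and 5.41 CPM in males.

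The sexes were also compared in their responses. By edgeR 0 of 41 chains were called for a difference of the exercise effect between males and females (0.0551% of all genes called), with 1 at an unadjusted p under 0.05 (*Col2a1*, the cartilage fibril chain, against 3.34% of all genes), and DESeq2 called 0. For a difference of the genotype effect 0 of 41 were called (0% of all genes called), with 2 at an unadjusted p under 0.05 (*Col9a2* and *Col11a1*, against 1.71% of all genes), and DESeq2 called 0. In the fit with all mice, 1 of 41 chains was called for sex at rest (2.2% of all genes called), namely *Col23a1*. There 5 had an unadjusted p under 0.05 (15.9% of all genes) and DESeq2 called 2. After exercise 0 of 41 were called (1.79% of all genes called), with 2 at an unadjusted p under 0.05 (14.1% of all genes) and 1 called by DESeq2.

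Chains that assemble into one trimer or fibril were compared across the 25 mice on log2 CPM. Of 14 pairs listed 12 had both chains tested, and 10 of these were correlated at an adjusted permutation p under 0.05 (100000 permutations, Benjamini-Hochberg over the 12). The smallest p the permutations can give is 1e-05 before adjustment. The points share library depth and tissue composition. High values were not particular to the listed pairs. Outside them r was 0.98 for *Col3a1* with *Col5a1*, 0.98 for *Col6a3* with *Col5a1* and 0.92 for *Col12a1* with *Col8a2*. It was -0.06 for *Col3a1* with *Col7a1*. Whether listed pairs were closer than others was not tested. Pearson r was 0.98 for *Col1a1* and *Col1a2*, 0.98 for *Col4a1* and *Col4a2*, 0.99 for *Col6a1* and *Col6a2*, 0.97 for *Col5a1* and *Col5a2* and 0.91 for *Col11a1* and *Col11a2*, with Spearman rho of 0.97, 0.98, 0.98, 0.97 and 0.94 and an adjusted permutation p of 1.5e-05 for each r and 1.33e-05 for each rho. These r values were 0.916 or more without the 2 mice farthest from the median, and 0.852 or more within males, within females, within rested and within exercised mice. The ratio of RPKM was 1.35 ± 0.15 (SD, n = 25) for *Col1a1* to *Col1a2*, 1.51 ± 0.09 for *Col4a1* to *Col4a2* and 2.28 ± 0.13 for *Col6a1* to *Col6a2*. Over the 25 mice these ratios ran from 1.02 (mouse 18) to 1.66 (mouse 11), from 1.34 to 1.67 and from 1.97 to 2.54.

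*Col6a3* followed *Col6a1* with r = 0.95 (rho 0.97; r = 0.94 without the 2 farthest mice) and *Col5a3* followed *Col5a1* with r = 0.84 (rho 0.82; r = 0.83), each with an adjusted p of 1.5e-05 for r and 1.33e-05 for rho. Other pairs were looser. *Col3a1* followed *Col1a1* with r = 0.78 (rho 0.82, adjusted p 2.67e-05 for r; r = 0.77 without the 2 farthest mice), 0.87 in rested and 0.58 in exercised mice. Its RPKM ratio to *Col1a1* ran from 0.525 (mouse 6) to 2.23 (mouse 7). *Col8a1* and *Col8a2* gave r = 0.42 (rho 0.43, adjusted p 0.0456 for r and 0.0417 for rho; r = 0.43 without the 2 farthest mice), which was 0.58 in rested and -0.18 in exercised mice. The difference between these values was not tested, and mouse 19 had both the highest *Col8a1* (56.2 CPM) and the lowest *Col8a2* (7.57 CPM) of the exercised mice. *Col4a3*, which shares 563 exon bases with *C430014B12Rik* on the opposite strand, with *Col4a5* (r = 0.24, adjusted p = 0.27; rho 0.34, adjusted p = 0.105) and *Col4a5* with *Col4a6* (r = 0.21, adjusted p = 0.321; rho 0.21, adjusted p = 0.313) were not correlated beyond the threshold. *Col4a6* had a median of 14 reads per library, which limits what its correlation can show.

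**Figure D5:**
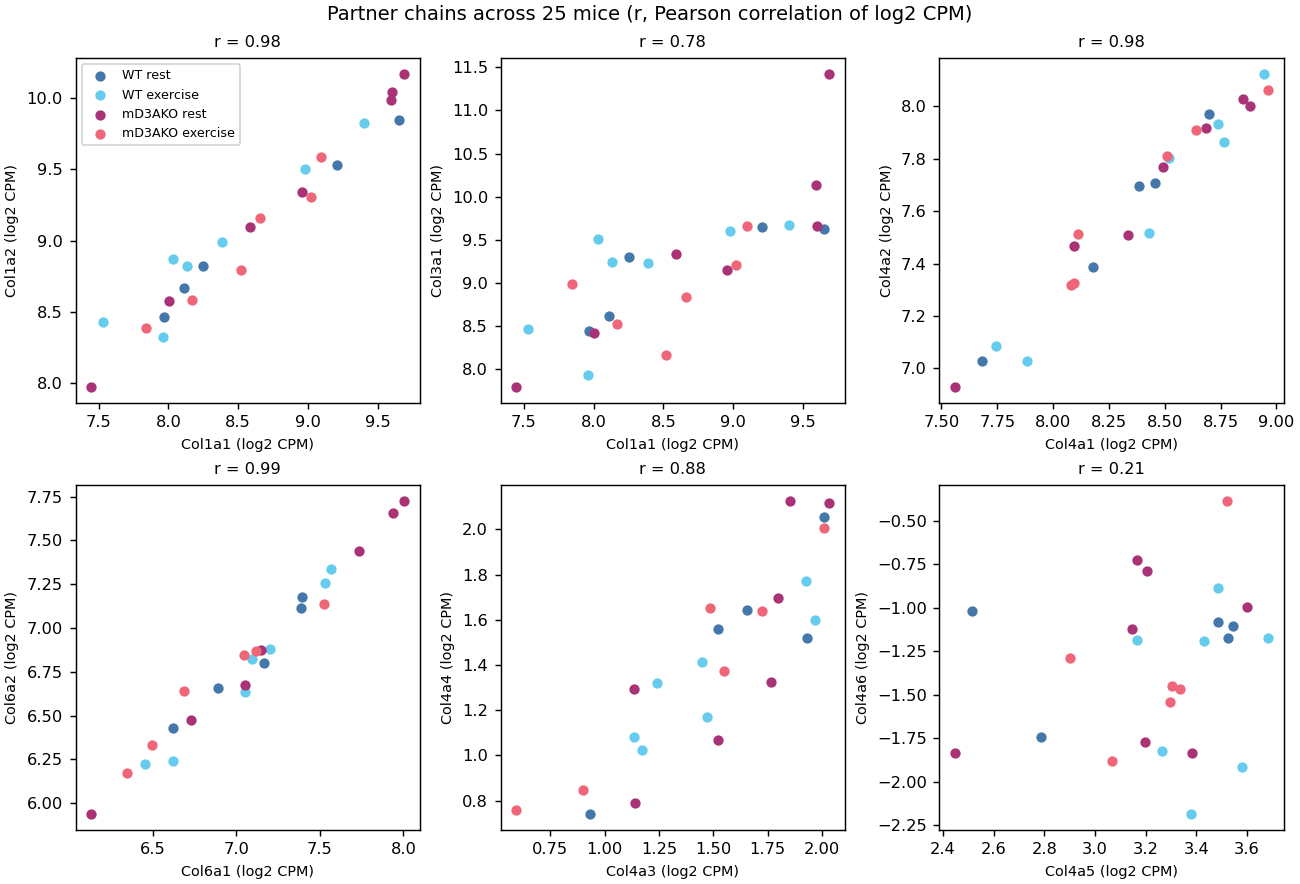
Log2 CPM of 6 pairs of partner chains, 1 point per mouse coloured by group, with Pearson r above each panel. Points lie along a line for *Col1a1* with *Col1a2*, *Col4a1* with *Col4a2* and *Col6a1* with *Col6a2* (r of 0.98 to 0.99) and scatter for *Col4a5* with *Col4a6* (r of 0.21).

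The 6 type IV genes lie in 3 head-to-head pairs, each with starts close together on opposite strands. *Col4a1* (mm10, chr8:11198423-11312826, minus strand) and *Col4a2* (chr8:11312805-11449287, plus strand) overlap by 22 bases at their 5′ ends, *Col4a4* (chr1:82448423-82586849, minus strand) and *Col4a3* (chr1:82586921-82722059, plus strand) are 71 bases apart, and *Col4a6* (chrX:141165403-141474076, minus strand) and *Col4a5* (chrX:141475385-141689234, plus strand) are 1308 bases apart. Across mice the correlation was 0.98 for the overlapping pair, 0.88 for the pair 71 bases apart (rho 0.86, adjusted p 1.5e-05 for r and 1.33e-05 for rho; r = 0.85 without the 2 farthest mice) and 0.21 for the third. That pair holds the sparse *Col4a6*, with a median of 14 reads per library. The sequences between the starts are shown on the plus strand (GRCm38.p6, RefSeq windows, chr8:11312805-11312826 and chr1:82586850-82586920). They hold 72.7% and 69.0% G and C. Capitals mark a GC box (GGGCGG) in the bases that *Col4a1* and *Col4a2* share, and no match to the motifs named below was found in the other.

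Col4a1 and Col4a2: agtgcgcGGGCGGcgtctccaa
Col4a4 and Col4a3: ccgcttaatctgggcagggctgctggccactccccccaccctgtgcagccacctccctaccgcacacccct

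Other members lie side by side without sharing a start. *Col3a1* and *Col5a2* are tail to tail on chromosome 1, 24614 bases apart (r = 0.98). *Col6a2* and *Col6a1* run in the same direction on chromosome 10, 85161 bases apart (r = 0.99). *Col6a6* and *Col6a5* run in the same direction on chromosome 9, 27917 bases apart (r = 0.35). High values were thus also found without a shared start, and the relation of r to distance was not tested.

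RefSeq promoter windows were at hand for 35 of the 44 members (38 windows). In the 250 bases before the start, a GC box (GGGCGG, either strand) was found in 57.9% of the member windows against 32.7% of all 32851 windows, a CCAAT box (CCAAT) in 34.2% against 33.8%, a TATA box (TATAAA) in 13.2% against 12.4% and an AP-1 site (TGANTCA) in 2.63% against 6.75%. The motifs were searched on both strands. The window of *Col3a1* (GRCm38.p6, chr1:45311288-45311537, plus strand) is shown because its mean RPKM was the highest with all mice included, though not without mouse 7. Capitals mark a TATAAA that begins 117 bases before the start. A match is a description and not a binding site. The GC content is 35.2%, against 66% for *Col23a1* and 56.4% for *Col7a1*.

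Col3a1: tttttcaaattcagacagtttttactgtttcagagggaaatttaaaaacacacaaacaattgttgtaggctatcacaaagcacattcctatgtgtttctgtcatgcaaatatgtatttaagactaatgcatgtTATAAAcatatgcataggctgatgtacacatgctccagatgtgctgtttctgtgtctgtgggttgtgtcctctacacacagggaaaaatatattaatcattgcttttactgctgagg

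The level of 8 chains was set against the summed CPM of 5 marker lists across mice, 40 relations in all, computed after the values had been seen (permutation p, Benjamini-Hochberg over the 40). *Col1a1* followed the tendon markers (*Scx*, *Tnmd*, *Mkx*, *Fmod*, *Thbs4*, *Comp*, *Kera*) with r = 0.89 (rho 0.85, adjusted p = 0.0001; r = 0.86 without the 2 farthest mice) and 0.82 to 0.92 within each sex and within rested and exercised mice. *Col22a1* followed them with r = 0.79 (rho 0.77, adjusted p = 0.0001 for r and 0.000133 for rho; r = 0.69 without the 2 farthest mice) and 0.71 to 0.83 within those groups. *Col6a1* followed the fibroblast markers (*Pdgfra*, *Dcn*, *Lum*, *Pi16*, *Dpp4*, *Cd248*, *Mfap5*) with r = 0.85 (rho 0.85, adjusted p = 0.0001; r = 0.85 without the 2 farthest mice) and 0.82 to 0.91 within those groups. *Col4a1* followed the endothelial markers with r = 0.47 over all mice (rho 0.47, adjusted p = 0.043 for r and 0.0414 for rho; r = 0.56 without the 2 farthest mice), but 0.72 within rested and 0.79 within exercised mice. The tendon and fibroblast sums differed between mice from 243.0 to 687.4 CPM and from 345.8 to 923.9 CPM. *Thbs4* and *Fmod* weighed most in the tendon sum (means of 194.0 and 121.6 CPM), and *Dcn* in the fibroblast sum (420.6 CPM).

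Of the 40 relations 26 had an adjusted p under 0.05 for r. Those above were picked from the 40, and the values of these chains with the other lists are not given here. They therefore do not tie a chain to a single list. Of 7 endothelial markers 5 were called lower after exercise, where 10.4% of all genes were called in either direction (*Kdr*, the VEGF receptor, by -0.58, adjusted p = 2.1e-06). Of 7 tested fibroblast markers 1 was called lower by edgeR (*Cd248*, -0.63, adjusted p = 0.0103). DESeq2 called 2 fibroblast markers, and 3 had an unadjusted p under 0.05 in edgeR, against 21.3% of all genes. Their median log2 fold change over the 7 was -0.24. Of 6 mural markers 2 were called lower (*Pdgfrb*, -0.46, adjusted p = 0.000364, and *Kcnj8*, -0.29, adjusted p = 0.00221). Of 7 tendon markers 0 were called (0 at an unadjusted p under 0.05 and 0 by DESeq2). The summed endothelial markers were 381.2 to 520.3 CPM in rested and 326.2 to 430.6 CPM in exercised mice, while *Col4a1* and *Col4a2* of the capillary basement membrane gave the values near 0 above. The part of these cell types in the collagen values was not tested. All markers of these lists were detected except *Tcf21* of fibroblasts, which had a median of 0 reads and at most 1.

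Of 88 other genes of collagen assembly, recognition and signalling, 87 were tested. For exercise 8 were higher and 4 lower (DESeq2 called 17), where 10.4% of all genes were called. For sex 2 were higher and 2 lower in males, where 8.65% of all genes were called. For genotype and for the interaction 0 were called, where 0.269% and 0% of all genes were called, and DESeq2 called 0. At an unadjusted p under 0.05 there were 3 and 4 of the 87, against 6.23% and 2.47% of all genes.

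Of the 21 genes that hydroxylate, glycosylate and fold procollagen, 3 rose and 1 fell with exercise, where 10.4% of all genes were called in either direction. Those that rose were *P4ha1* and *P4ha2*, which encode catalytic subunits of prolyl 4-hydroxylase (log2 fold changes 0.39 ± 0.07, adjusted p = 0.000146, and 0.34 ± 0.05, adjusted p = 1.97e-05), and *Plod2*, the lysyl hydroxylase of the telopeptides (0.64 ± 0.15, adjusted p = 0.00568). The sparse *P4ha3* of the same list (1 to 78 reads per library) was not called (-0.41 ± 0.33, adjusted p = 0.557). *Colgalt2*, a collagen galactosyltransferase, fell by 0.33 ± 0.09 (adjusted p = 0.0214). Of the 13 genes of procollagen cleavage and cross-linking 0 were called for exercise (1 at an unadjusted p under 0.05 and 1 by DESeq2), and *Adamts3*, a procollagen N-proteinase, was lower in males (-0.56 ± 0.17, adjusted p = 0.0447). Of 9 tested collagen receptors, *Itga11*, the fibrillar collagen integrin of fibroblasts (-0.58 ± 0.15, adjusted p = 0.00839), and *Lair1*, an inhibitory receptor of leukocytes (-1.10 ± 0.28, adjusted p = 0.00791), fell with exercise.

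In the TGF-beta pathway, a main inducer of fibrillar collagen genes, 5 of 22 genes rose with exercise and 1 fell, where 10.4% of all genes were called in either direction. *Ccn2*, a matricellular target gene, had the largest change at 1.62 ± 0.19 (adjusted p = 5.72e-07). The target gene *Ccn1* (0.99 ± 0.32, adjusted p = 0.0487) rose too, as did the pathway inhibitors *Smad7* (0.51 ± 0.08, adjusted p = 9.76e-05), *Skil* (0.61 ± 0.09, adjusted p = 2.7e-05) and *Smurf2* (0.15 ± 0.04, adjusted p = 0.0205). The ligand *Tgfb2* fell by 0.22 ± 0.06 (adjusted p = 0.015). *Ccn1* and *Ccn2* were also higher in males, by 0.91 and 0.60 (adjusted p = 0.00573 and 0.0046). Of 22 other matrix proteins 0 were called for exercise (2 at an unadjusted p under 0.05 and 0 by DESeq2), and *Lamb2*, a laminin chain of the synaptic basement membrane, was lower in males (-0.30 ± 0.06, adjusted p = 0.00461).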

How the data were processed

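The authors deposited raw counts per gene (whole numbers) with exon lengths. Per the submitters' processing notes they used FastQC 0.11.5, STAR 2.5.3a and featureCounts 1.5.3 on mm10. Libraries were depleted of ribosomal RNA, stranded and read as 75-bp pairs. The strand setting of the counting is not given in the sources used here, so reads of overlapping genes may not be separated: *Col4a3* shares 563 exon bases with *C430014B12Rik* (2 to 10 reads) and *Col9a3* 234 with *Tcfl5*, both on the opposite strand, *Col20a1* (median 123 reads) shares 79 with a gene on its strand (median 215), and *Col10a1* (median 16) shares 18 with *Nt5dc1* (median 226).

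Symbols were joined by gene ID (52403 of 52636 genes). Genes were filtered with filterByExpr (minimum count 10, total 15), scaled by TMM and tested with edgeR 4.0.16 in R 4.3.3 (quasi-likelihood on the means of the 4 groups, or of 8 groups for sex), with p-values adjusted over all 16340 genes by Benjamini-Hochberg at 0.05. DESeq2 1.42.0, other scalings and filters, sex-adjusted and single-sex fits and fits without each mouse were alternatives. Log2 CPM for correlations used a prior count of 2. Permutations were run with SciPy 1.17.1 and NumPy 2.4.6. The tests were checked on simulated data. No pair of replicates agreed within sampling noise (67 pairs, chi-square per gene of 14.2 or more). Each library is 1 mouse.

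The members, gene lists and tests were chosen with earlier results of these data known. Values were named for called chains, the 10 highest by RPKM, chains of types I, III, IV, V, VI, XIII, XV, XVIII, XXII and XXV and, of each other list, the called genes (at most 5 a direction by p). *Col2a1*, *Col8a1*, *Col8a2*, *Col9a2*, *Col11a1*, *Col12a1*, *Col14a1*, *Col19a1*, *Col24a1*, *Col26a1* and *Col28a1* were named after their values were seen, as were the fits without mice 7 and 15, the fit without 6 mice and the relations to marker lists. Some genes of these lists are not reported here and were left out of the counts and sums.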

Additional observations from a re-analysis of the deposited data

Results flagged for a closer look

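Within groups of 5 to 7 mice, the highest or lowest mouse of 24 chains was compared with the others in 96 groups, and 8 values stood apart from their group. Chance alone gives about 1 in 20 groups. Of the 8 values, 3 belong to mouse 7 (mD3AKO, rest). In this mouse *Col3a1* stood at 2751 CPM (next mouse 1130), *Col5a2* at 424.9 CPM (next 161) and *Col25a1*, the motor innervation collagen, at 2.093 CPM (next 1.144). In mouse 15 of the same group *Col13a1* was lowest at 0.9092 CPM (next 2.035). *Col6a5* was highest in mouse 20 among WT mice at rest (2.43 CPM, next 0.4722) and in mouse 10 among mD3AKO mice after exercise (2.711 CPM, next 0.8532), both of which were among the 6 mice highest in Schwann cell markers. *Col4a6* was highest in mouse 10 (0.7653 CPM, next 0.4095) and lowest in mouse 1 among WT mice at rest (0.2983 CPM, next 0.4426), at 4 to 24 reads per library.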

How the results depend on the processing

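The count of chains called for genotype and for the interaction was 0 in every alternative run. For exercise the count fell from 1 to 0 with no composition scaling, no filter, a filter of at least 1 CPM in 5 libraries, 8 groups with sex, males only, females only and without mice 7 and 15, and it was 0 to 1 on leaving out each mouse. The log2 fold change of *Col7a1* stayed above 0 in these fits (0.19 to 0.66). For sex the count moved from 2 to 1 with sex as an additive term beside the 4 groups and without mice 7 and 15, to 0 in rested mice only and 0 in exercised mice only, and it was 1 to 3 on leaving out each mouse. *Col1a1* changed sign for exercise in females only (0.050), and *Col8a1* with *Col8a2* changed sign in exercised mice only (r = -0.18). The cause was not tested. The fits without mice 7 and 15 were chosen after seeing the data. No paired analysis was possible because each mouse has a number of its own. Read depth limits *Col19a1*, *Col4a6* and *Col10a1*, with medians of 8, 14 and 16 reads.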
